A study of Homo sapiens with 18 samples.

Results

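The genes of mitosis and of the passage from G2 into mitosis were followed through heat shock and recovery in SW620 cells, a human colon cancer line, with and without silencing of Lonp1, a protease of the mitochondrial matrix. The 40 genes were taken by symbol from a given list, and each of them was found among the 26485 genes of the counts table. The study asks how the response of these cells to heat depends on Lonp1, and the comparisons are those of its 6 groups, each with 3 libraries that the paper's methods call independent biological replicates. Ctrl cells stayed at 37 °C, HS cells were held at 42 °C for 1 h, and HS+REC cells had the same hour of heat followed by 1 h of recovery at 37 °C. Each of these conditions was sampled in cells treated with scrambled siRNA (scramble) and in cells treated with siRNA against Lonp1 (siLonp1), all grown in RPMI medium with 10% foetal bovine serum. RNA was read as stranded mRNA libraries in paired ends. The model is 1 cell line, the text does not say which of its siRNA sequences was used for RNAseq, and the RNAseq methods name no synchronization of the cells. Total counts per library ranged from 30815860 (HS scramble, replicate 3) to 47279297 (HS+REC scramble, replicate 3).

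A dividing cell prepares for mitosis in G2, when cyclin A and cyclin B accumulate and bind CDK1, and CDC25 phosphatases then switch the kinase on. The Aurora kinases, PLK1 and the kinesin motors build the spindle, the chromosomal passenger complex and the spindle checkpoint watch the attachment of chromosomes, and the anaphase-promoting complex APC/C with CDC20 ends mitosis by destroying cyclin B and securin. Most of these genes are transcribed late in the cell cycle under the DREAM complex, MYBL2 and FOXM1, which act through a promoter motif called CHR, often next to CCAAT boxes bound by NF-Y, and tumor cells of the colon divide fast and express them strongly.

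The labels were checked against markers. Of 10 genes of colon epithelium, KRT8 had the highest CPM (4925.4 CPM in Ctrl scramble, CPM being counts divided by the scaled library total), and the summed level of the 10 lay between 8761.1 and 12134.5 CPM in each library. LGALS4 and KRT20 were close to 0, with at most 0.458 and 1.25 CPM in a library. CDH17 and CDX2, genes of intestinal identity, stood at 10.3 and 29.5 CPM in Ctrl scramble and at 1.18 and 15.8 CPM in Ctrl siLonp1. Of 11 markers of blood, vessel, muscle, liver and connective tissue cells, 4 passed the filter on low counts, and PTPRC, CD3E and COL1A2 had at most 3 counts in a library. The summed level of the 11 was 20.7 to 23.5 CPM in Ctrl scramble, 28.1 to 34.3 in HS scramble and 43.3 to 44.4 in HS+REC scramble, and 25.6 to 28.7, 32.9 to 38.7 and 48.6 to 54.3 CPM in the same conditions with siLonp1. CD68 made up the most of this sum in Ctrl, with 11.2 CPM in scramble and 14.3 in siLonp1, and COL1A1 after HS+REC, where it stood at 30.2 and 33.4 CPM against 9.21 and 9.70 in Ctrl. The part of these markers in the changes of the mitotic genes was not tested.

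LONP1 itself (chromosome 19, 5691834 to 5720146 of GRCh38, minus strand) shows the depth of silencing in the same libraries. Its level in scramble was 223, 225 and 214 CPM in Ctrl, 219, 227 and 197 in HS and 225, 197 and 233 in HS+REC, and in siLonp1 it was 19.4, 22.5 and 19.5 CPM in Ctrl, 11.8, 11.6 and 11.8 in HS and 27.1, 25.6 and 28.9 in HS+REC. Every siLonp1 library lay far below every scramble library. On the log2 scale siLonp1 lowered it by -3.43 (Ctrl), -4.19 (HS) and -3.01 (HS+REC), each with a standard error of 0.08.

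All 40 mitotic genes were well measured: each had CPM above 1 in all 18 libraries, and the lowest value was 9.82 CPM, for CDC25C. Together they held 0.578% ± 0.00737 of all counts in Ctrl scramble (SD, n = 3 libraries), 0.530% ± 0.00656 in HS scramble and 0.480% ± 0.0187 in HS+REC scramble. With siLonp1 the shares were 0.525% ± 0.00383, 0.460% ± 0.00775 and 0.418% ± 0.00599, so the highest share was that of Ctrl scramble and the lowest that of HS+REC siLonp1. These are shares of raw totals without TMM scaling. The TMM factors were 1.051 to 1.057 in Ctrl scramble and 0.9340 to 0.9581 in HS+REC siLonp1, so on scaled totals these 2 groups lie closer. Per kilobase of transcript (GENCODE release 44, the MANE Select transcript of each gene), UBE2C, the ubiquitin-conjugating enzyme of APC/C, had the highest level in Ctrl scramble, at 175 ± 5.86 CPM per kb. CCNB1 followed with 148 ± 5.17 and PTTG1, which encodes securin, with 138 ± 3.75 CPM per kb. At the other end stood CENPE, a long kinesin of the kinetochore, with 3.05 ± 0.105 CPM per kb, below CDC25C with 7.25 ± 0.729 and ASPM with 8.12 ± 0.605. The genes lie on 17 chromosomes, with at most 7 on the same one.

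**Figure D1:**
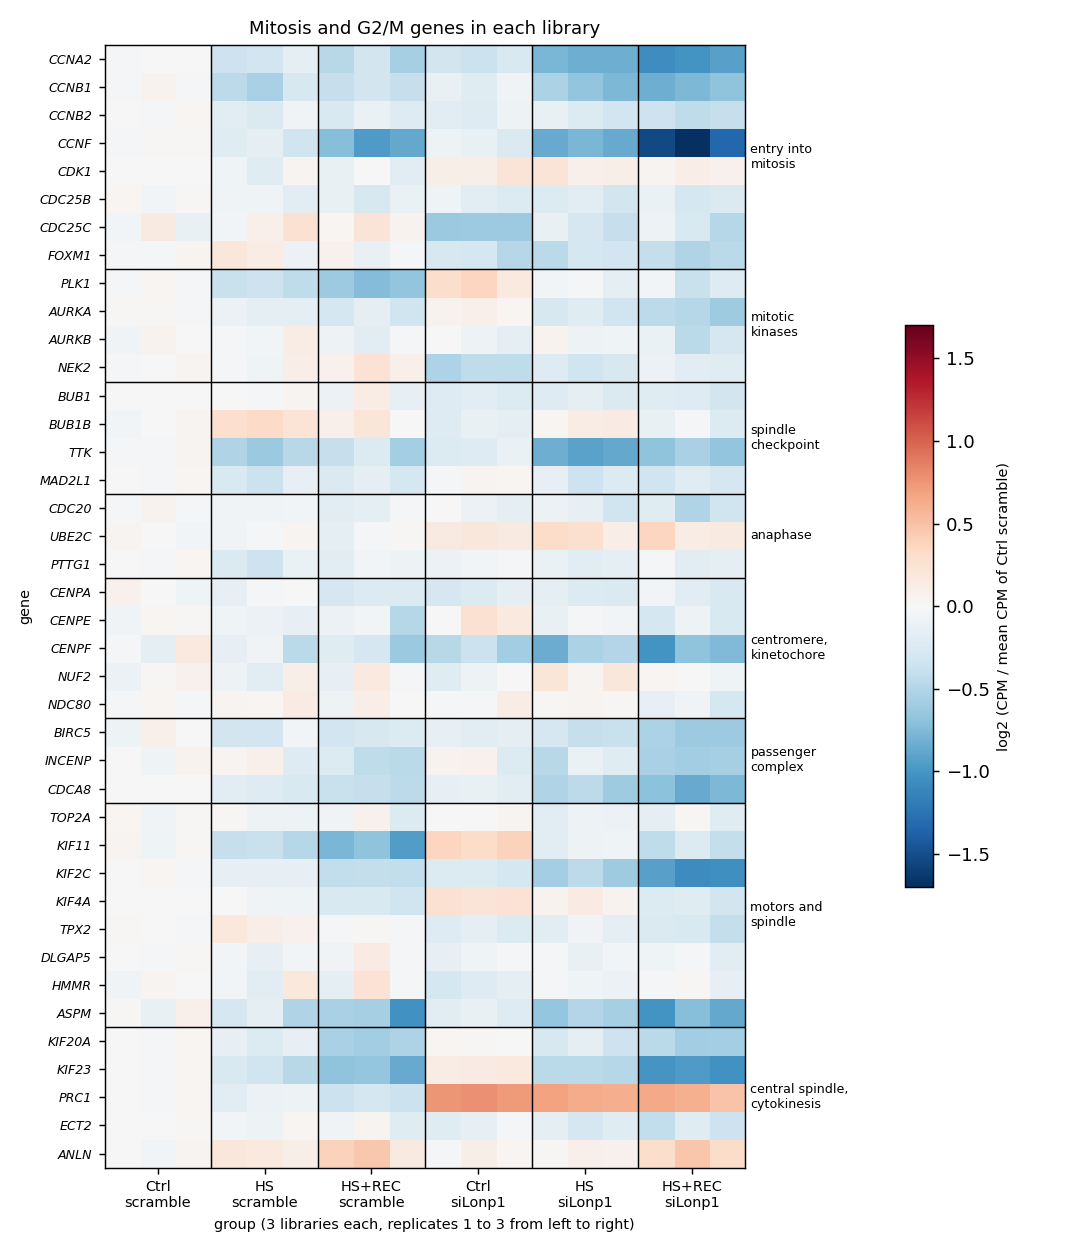
Level of each of the 40 genes in each of the 18 libraries, as log2 of its CPM over its mean CPM in Ctrl scramble; rows are genes grouped by role, columns are libraries, blue is lower and red is higher. CCNF, KIF23 and KIF2C darken to blue from Ctrl to HS+REC in both siRNA treatments, and PRC1 is red in every siLonp1 library.

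The promoters show what the genes have in common in sequence. RefSeq promoters of GRCh38.p14, 300 bases each from 250 before to 50 after a transcript start, were at hand for 34 of the 40 genes, as 44 promoters; BIRC5, AURKA, FOXM1, TTK, UBE2C and TPX2 had none. CHR was searched as TTTGAA or TTCGAA or TTTAAA or CTTGAA and the CCAAT box as CCAAT, each on both strands. A pair of units of the heat shock element was searched as GAA and TTC with 2 bases between, which reads the same on both strands. The order with TTC before GAA was not searched. A CHR and a CCAAT match can share an end letter, and a CHR match can share its GAA or TTC with the pair of units. CHR was present in 37 of the 44 promoters (84.1%), against 32.2% of all 35116 promoters of the same length, 3298 of the 14007 promoters of genes tested, 37 of 50 (74%) promoters of other mitotic genes and 11 of 53 (20.8%) of genes for G1/S and DNA replication. In 31 of the 44 (70.5%) a CHR lay within 60 bases of the start, against 11.7% of all promoters. The share was 7.71% for genes tested, 68% for other mitotic genes and 11.3% for G1/S. The CCAAT box was present in 33 (75%), against 34.6% of all promoters, 34.4% of those of genes tested, 78% of those of other mitotic genes and 52.8% of those for G1/S. Both motifs were present in 29 (65.9%), against 12.4% of all promoters, 8.95% of those of genes tested, 62% of those of other mitotic genes and 11.3% of those for G1/S. The pair of heat shock element units, in the order searched, was found in 2 (4.55%), those of CCNB2 and TOP2A, against 4.69% of promoters of genes tested and 6.77% of all promoters. A match is a description of letters and not a bound site.

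The promoters below are those of CCNF and KIF23, the genes with the strongest fall after HS+REC in siLonp1, of KIF11, which fell with heat and rose with siLonp1, of PRC1, which rose most with siLonp1, of ANLN, which rose after recovery, and of TOP2A, which passed no test against Ctrl or scramble. They stand for chr16:2429197-2429496 (plus strand), chr15:69414099-69414398 (plus), chr10:92592880-92593179 (plus), chr15:90994486-90994785 (minus), chr7:36389612-36389911 (plus) and chr17:40417847-40418146 (minus) of GRCh38.p14, and are written 5′ to 3′ in the direction of the gene. Capitals mark CHR and CCAAT matches, which read TTCAAA or TTCAAG or ATTGG where they lie on the other strand.
CCNF: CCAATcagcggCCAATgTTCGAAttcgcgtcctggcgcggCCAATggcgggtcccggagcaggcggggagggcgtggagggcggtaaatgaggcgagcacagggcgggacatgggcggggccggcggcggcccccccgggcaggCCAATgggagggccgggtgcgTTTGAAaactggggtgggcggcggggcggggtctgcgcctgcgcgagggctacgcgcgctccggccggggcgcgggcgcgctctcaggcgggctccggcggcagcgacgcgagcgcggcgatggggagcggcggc
KIF23: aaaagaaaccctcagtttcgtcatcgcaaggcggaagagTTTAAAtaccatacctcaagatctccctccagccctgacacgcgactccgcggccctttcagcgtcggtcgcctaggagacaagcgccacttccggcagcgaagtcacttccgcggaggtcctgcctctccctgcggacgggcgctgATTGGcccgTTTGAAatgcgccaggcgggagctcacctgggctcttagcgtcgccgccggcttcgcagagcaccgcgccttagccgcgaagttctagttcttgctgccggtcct
KIF11: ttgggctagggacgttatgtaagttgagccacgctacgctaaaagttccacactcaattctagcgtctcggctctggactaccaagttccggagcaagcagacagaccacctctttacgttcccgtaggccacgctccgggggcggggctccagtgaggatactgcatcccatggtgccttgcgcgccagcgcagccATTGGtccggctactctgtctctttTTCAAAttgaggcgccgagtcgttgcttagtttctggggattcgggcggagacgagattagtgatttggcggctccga
PRC1: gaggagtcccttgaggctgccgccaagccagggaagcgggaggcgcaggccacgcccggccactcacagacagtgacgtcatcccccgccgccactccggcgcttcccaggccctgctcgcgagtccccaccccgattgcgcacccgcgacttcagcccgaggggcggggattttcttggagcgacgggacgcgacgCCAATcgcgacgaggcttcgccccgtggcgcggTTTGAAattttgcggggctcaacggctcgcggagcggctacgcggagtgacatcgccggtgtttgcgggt
ANLN: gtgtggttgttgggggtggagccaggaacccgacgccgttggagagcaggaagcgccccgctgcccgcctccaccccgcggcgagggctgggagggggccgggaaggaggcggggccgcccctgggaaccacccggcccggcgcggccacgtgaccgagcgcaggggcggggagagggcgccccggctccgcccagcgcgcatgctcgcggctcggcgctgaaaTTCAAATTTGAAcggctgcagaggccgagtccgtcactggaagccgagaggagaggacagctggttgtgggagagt
TOP2A: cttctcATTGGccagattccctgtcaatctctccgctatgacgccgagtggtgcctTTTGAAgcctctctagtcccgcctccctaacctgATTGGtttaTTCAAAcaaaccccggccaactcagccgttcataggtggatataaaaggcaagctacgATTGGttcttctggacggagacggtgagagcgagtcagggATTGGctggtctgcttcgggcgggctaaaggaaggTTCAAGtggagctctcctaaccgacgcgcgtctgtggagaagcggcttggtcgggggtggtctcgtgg
CHR and CCAAT matches were present in 5 of these 6 promoters whether the gene fell, rose or did not pass, and ANLN had CHR alone.

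Heat shock is compared with Ctrl within each siRNA treatment, to ask how the cells' RNA differs directly after heat and after recovery. Most of the mitotic genes that changed fell, and more of them were lowered after HS+REC than after HS. TTK had the largest fall after HS, with CCNF level to it in siLonp1, and CCNF the largest after HS+REC in both siRNA treatments, while the change of TTK was smaller after HS+REC than after HS. In scramble, HS lowered 13 of the 40 genes (32.5%), against 17.3% of all 12832 genes tested, and raised 1, against 18.6%. In siLonp1, HS lowered 16, against 22.1% of all genes, and raised 4, against 20.2%. HS+REC lowered 21 and raised 1 in scramble, against 20.5% and 21.8% of all genes, and lowered 24 and raised 3 in siLonp1, against 26.6% and 24.6%. The counts of raised genes hung on single libraries: for HS they were 4 without HS scramble replicate 3 in scramble, and 2 without replicate 1 of Ctrl or 3 of HS and 1 without replicate 1 of HS in siLonp1. Of 189 calls of a mitotic gene over the 11 comparisons, 131 passed whichever library was left out and none changed direction. A gene counts as raised or lowered here at a false discovery rate of at most 0.05 in edgeR's quasi-likelihood test over all genes tested, whatever the size of its change. In bulk RNA, fewer cells in G2 or mitosis and less RNA of a gene per cell cannot be told apart.

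The median log2 fold change of the 40 genes was -0.09 for HS in scramble and -0.10 in siLonp1, and -0.20 and -0.22 for HS+REC, while the median of all genes tested lay between -0.01 and 0.00 in these 4 comparisons. Values below 0 were found for 32, 27, 32 and 32 of the 40 genes in the same order. With library size alone as the scale, the calls among all genes shift toward lower, from 2795 raised and 2632 lowered to 2096 and 3906 for HS+REC in scramble and from 3152 and 3412 to 2412 and 4454 in siLonp1. On that scale the median of the 40 for HS in siLonp1 was -0.1533, with 2 genes raised. The median of all genes was then -0.048, with 2161 raised and 3450 lowered, so the 40 moved along with the scale. A 2-fold change in addition was passed by CCNF and KIF23 for HS+REC in siLonp1, where 5.71% of all genes passed it. In the other 3 comparisons, where 3.30% (HS scramble), 4.57% (HS siLonp1) and 4.46% (HS+REC scramble) of all genes passed, the largest changes of a mitotic gene were -0.53, -0.68 and -0.85 on the log2 scale, short of 2-fold.

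**Figure D2:**
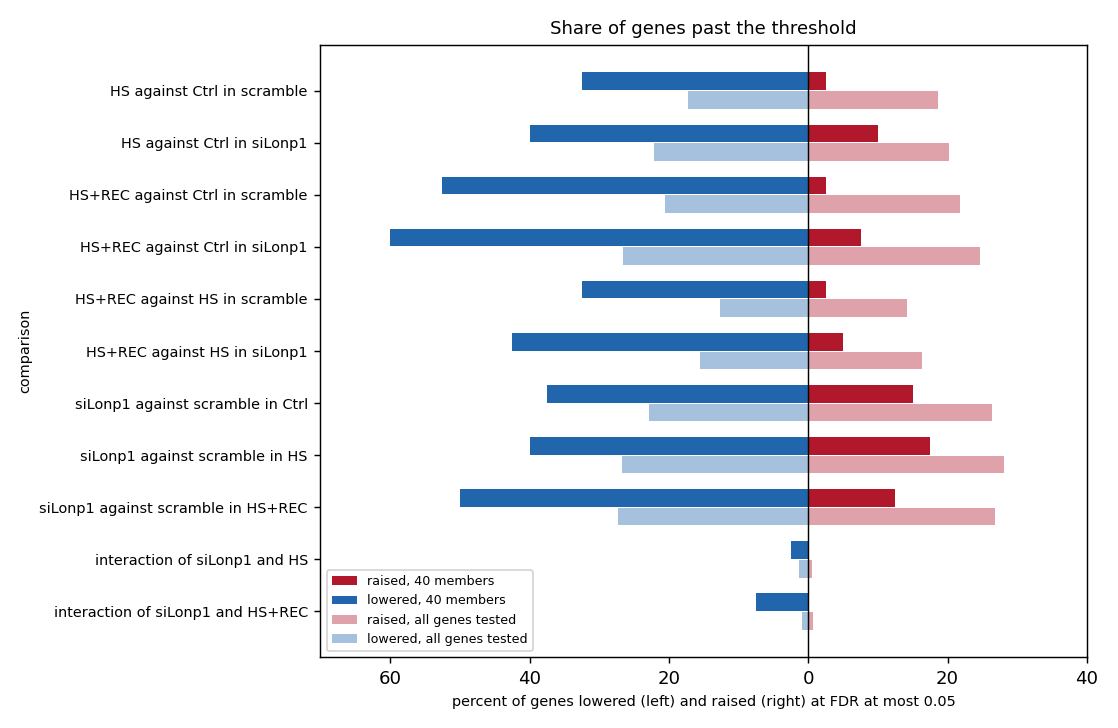
Percent of the 40 genes (dark bars) and of all 12832 genes tested (light bars) that were lowered (to the left) or raised (to the right) at a false discovery rate of at most 0.05, for each of the 11 comparisons. For HS+REC in siLonp1, 60% of the mitotic genes and 26.6% of all genes were lowered.

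Among the genes of entry into mitosis, CCNF fell most after HS+REC, while CCNB1 and CCNA2 had larger changes than CCNF after HS in scramble. It encodes cyclin F, the F-box protein of a ubiquitin ligase that works in G2 and does not activate a CDK (chromosome 16, 2429447 to 2458854). In scramble it stood at 82.2, 85.8 and 85.2 CPM in Ctrl, 73.4, 75.5 and 66.9 in HS and 51.3, 43.2 and 46.0 in HS+REC. In siLonp1 the values were 79.3, 77.3 and 71.1 CPM in Ctrl, 46.6, 49.2 and 46.4 in HS and 29.1, 26.0 and 33.5 in HS+REC. Within each siRNA treatment no library of a later condition reached a library of an earlier one, and the HS siLonp1 libraries were already as low as those of HS+REC scramble. The log2 fold change of HS+REC was -0.85 (standard error 0.08, adjusted p = 4.60e-09) in scramble and -1.36 (standard error 0.08, adjusted p = 1.49e-12) in siLonp1, with all 3 libraries below Ctrl in each (edgeR's quasi-likelihood test, Benjamini-Hochberg adjusted). For HS it was -0.23 in scramble and -0.68 in siLonp1, each with a standard error of 0.08. The HS call in scramble was lost without replicate 2 (-0.22) or 3 (-0.22) of Ctrl scramble or replicate 3 (-0.16) of HS scramble, with the value then found in brackets.

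CCNB1, cyclin B1, the activating partner of CDK1 at mitotic entry, had 294, 313 and 296 CPM in Ctrl scramble, 221, 206 and 249 in HS and 229, 243 and 229 in HS+REC. Its siLonp1 values were 276, 262 and 289.5 CPM in Ctrl, 207, 189 and 177 in HS and 170.2, 178 and 188 in HS+REC. Every heated library lay below every Ctrl library of its siRNA treatment, and HS and HS+REC overlapped. The log2 fold change of HS was -0.42 (standard error 0.07, adjusted p = 3.78e-05) in scramble and -0.53 (standard error 0.07, adjusted p = 1.06e-06) in siLonp1, with 3 of 3 libraries lower in each (edgeR's quasi-likelihood test, Benjamini-Hochberg adjusted). HS+REC gave -0.37 and -0.63.

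CCNA2, cyclin A2, which works in S phase and G2, had 85.0, 86.6 and 87.0 CPM in Ctrl scramble, 67.3, 69.0 and 77.1 in HS and 61.9, 69.3 and 58.4 in HS+REC. With siLonp1 CCNA2 had 69.4, 66.9 and 72.3 CPM in Ctrl, 50.1, 48.6 and 48.7 in HS and 41.3, 42.6 and 45.4 in HS+REC. It fell in each of the 4 comparisons, from -0.28 for HS in scramble to -0.69 for HS+REC in siLonp1 on the log2 scale, with no overlap between heated and Ctrl libraries. CDK1, the kinase that these cyclins drive, had 164, 162 and 163 CPM in Ctrl scramble, 155, 142 and 168 in HS and 149.5, 164 and 143 in HS+REC. Its siLonp1 values were 175, 175 and 190.0 CPM in Ctrl, 189, 173 and 174 in HS and 169, 177 and 171 in HS+REC, and heated and Ctrl libraries overlapped in every comparison. The log2 fold changes of CDK1 lay between -0.10 and -0.01, and no test passed.

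CDC25C, a phosphatase that activates CDK1, had 14.8, 16.9 and 13.9 CPM in Ctrl scramble, 14.7, 16.1 and 18.2 in HS and 15.5, 17.7 and 15.9 in HS+REC, where all groups overlapped. With siLonp1 it started lower, at 9.82, 9.88 and 9.91 CPM in Ctrl, and stood at 13.9, 12.4 and 11.5 in HS and 14.3, 12.6 and 10.8 in HS+REC, every heated library above every Ctrl library. HS raised it by 0.36 (standard error 0.11) in siLonp1 on the log2 scale against 0.10 (standard error 0.10) in scramble, and the interaction of 0.26 (standard error 0.15) did not pass. FOXM1, a transcription factor of the G2/M genes, had 216, 218 and 229.6 CPM in Ctrl scramble, 254, 242 and 207 in HS and 232, 202 and 218 in HS+REC. Its siLonp1 values were 183, 179 and 158 CPM in Ctrl, 162, 180.0 and 176 in HS and 167, 155 and 162 in HS+REC, with heated and Ctrl libraries overlapping in both siRNA treatments and log2 fold changes between -0.11 and 0.08. CCNB2, a second B-type cyclin, fell with HS+REC by -0.19 and -0.23, and CDC25B, the CDC25 phosphatase that acts early in G2, by -0.17 in scramble, with -0.05 in siLonp1 and an interaction of 0.12 (standard error 0.09) that did not pass. Of the 8 genes of this role, HS lowered 3 in each siRNA treatment, against 17.3% of all genes in scramble and 22.1% in siLonp1, and HS+REC lowered 5 in scramble, against 20.5%, and 4 in siLonp1, against 26.6%. CDC25C in siLonp1 did not pass without replicate 1 (0.28) of HS siLonp1 for HS and without replicate 1 (0.25) of HS+REC siLonp1 for HS+REC. For HS+REC in scramble, CCNB2 did not pass without replicate 3 (-0.18) of Ctrl scramble or replicate 1 (-0.16) of HS+REC scramble, and CDC25B without replicate 1 (-0.15) or 3 (-0.16) of Ctrl scramble or replicate 2 (-0.12) of HS+REC scramble.

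**Figure D3:**
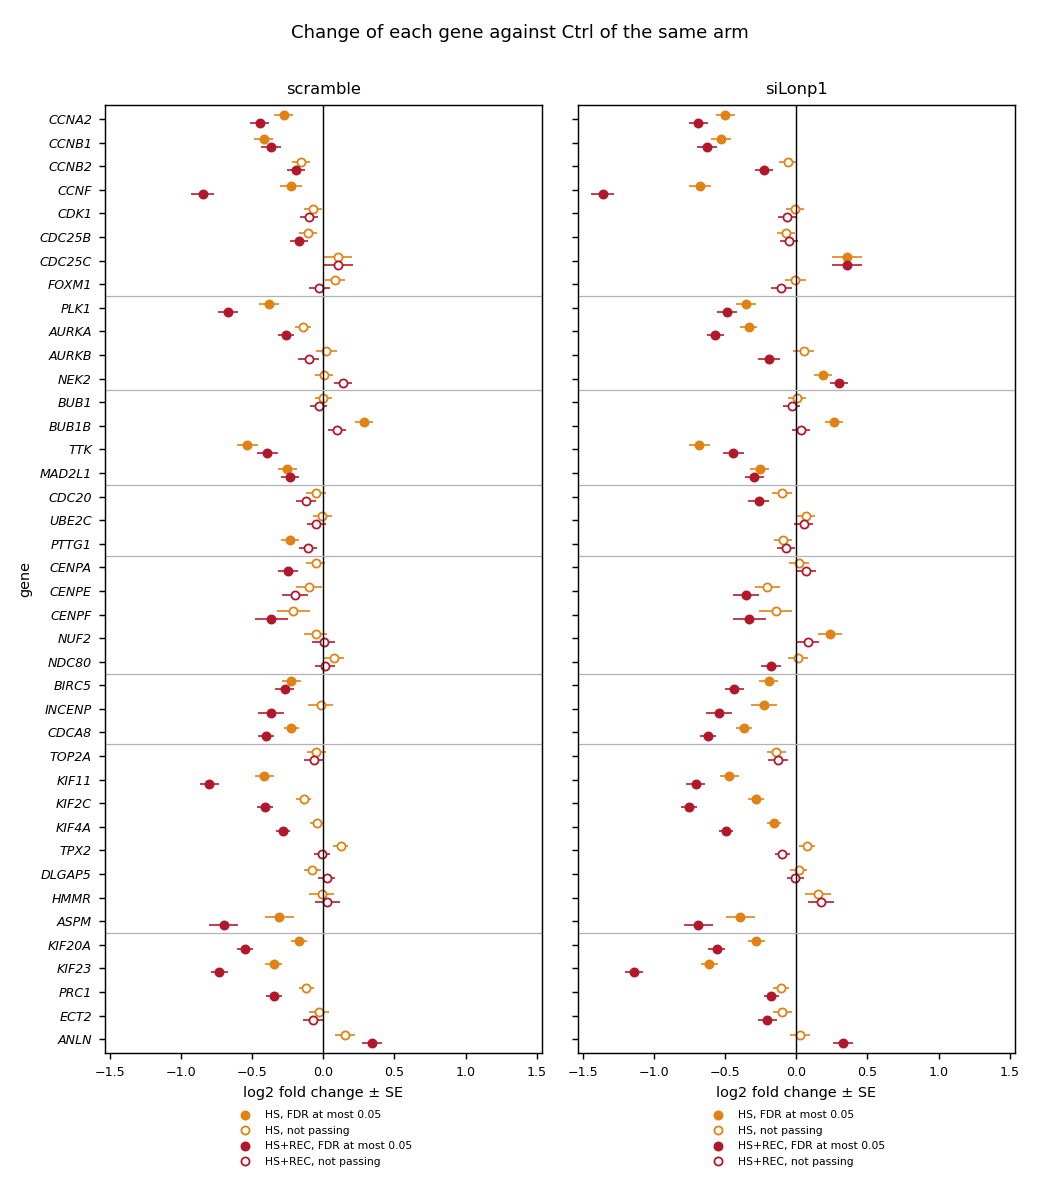
Log2 fold change of each of the 40 genes against Ctrl, with its standard error as a bar, for HS (orange) and HS+REC (dark red), in scramble (left) and siLonp1 (right); filled points passed a false discovery rate of 0.05 and open points did not. CCNF and KIF23 reach -1.36 and -1.14 for HS+REC in siLonp1.

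The kinases that run mitosis divided by gene. PLK1, which acts at centrosomes, kinetochores and the central spindle, had 179.8, 186 and 179 CPM in Ctrl scramble, 140.1, 142 and 135 in HS and 119, 109 and 114 in HS+REC. With siLonp1 it had 224, 233 and 204 CPM in Ctrl, 175, 179.8 and 162 in HS and 175, 139.6 and 156 in HS+REC, again with every heated library below every Ctrl library. The log2 fold change of HS+REC was -0.67 (standard error 0.07, adjusted p = 3.80e-08) in scramble and -0.49 (standard error 0.07, adjusted p = 2.81e-06) in siLonp1, lower in 3 of 3 libraries each (edgeR's quasi-likelihood test, Benjamini-Hochberg adjusted). AURKA, the Aurora kinase of the spindle poles, had 120.2, 120.2 and 115 CPM in Ctrl scramble, 111, 106 and 106 in HS and 96.7, 106 and 94.2 in HS+REC. With siLonp1 AURKA had 124, 126 and 122 CPM in Ctrl, 97.8, 103 and 93.5 in HS and 87.2, 84.6 and 78.4 in HS+REC. No heated library of AURKA overlapped with Ctrl, and its fall with HS+REC was -0.26 in scramble and -0.57 in siLonp1. The interaction for AURKA with HS+REC, -0.31 (standard error 0.08, adjusted p = 0.0589), missed the threshold (edgeR's quasi-likelihood test, Benjamini-Hochberg adjusted), with 3 of 3 libraries lower in each siRNA treatment. AURKB, the kinase of the chromosomal passenger complex, was lowered for HS+REC in siLonp1 (-0.19) with libraries that overlapped Ctrl, and had -0.10 in scramble with an interaction of -0.09 (standard error 0.11) that did not pass. NEK2, a kinase of centrosome separation, went the other way, raised in siLonp1 by 0.19 with HS and 0.30 with HS+REC, against 0.01 and 0.14 in scramble, with interactions of 0.18 and 0.16 that did not pass. Calls that hung on a library were AURKB for HS+REC in siLonp1, lost without replicate 1 (-0.15) or 2 (-0.20) of Ctrl siLonp1 or replicate 2 (-0.11) or 3 (-0.19) of HS+REC siLonp1, and NEK2 for HS in siLonp1, lost without replicate 1 (0.16) of Ctrl siLonp1 or replicate 1 (0.16) or 3 (0.18) of HS siLonp1. The NEK2 call was lost with library size alone (0.14), and the AURKB call with the compared groups alone (-0.17).

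In the spindle checkpoint, TTK (MPS1, the kinase that starts checkpoint signalling at kinetochores) had 52.9, 53.6 and 55.8 CPM in Ctrl scramble, 37.9, 35.1 and 39.1 in HS and 41.2, 46.1 and 36.3 in HS+REC. In siLonp1 it had 45.9, 46.6 and 49.8 CPM in Ctrl, 30.4, 28.7 and 29.5 in HS and 33.6, 37.0 and 34 in HS+REC. Heated libraries were below Ctrl throughout, and in siLonp1 every HS+REC library stood above every HS library. HS changed TTK by -0.53 (standard error 0.07, adjusted p = 3.05e-06) in scramble and by -0.68 (standard error 0.07, adjusted p = 6.56e-08) in siLonp1, 3 of 3 libraries lower in each, the largest fall by HS in scramble and level with CCNF in siLonp1 (edgeR's quasi-likelihood test, Benjamini-Hochberg adjusted). After HS+REC the changes against Ctrl were -0.39 and -0.44. MAD2L1, which holds CDC20 inactive, was lowered in all 4 comparisons, between -0.30 and -0.23. BUB1B, the BUBR1 subunit of the mitotic checkpoint complex, was raised by HS, from 87.5 ± 2.76 to 107 ± 3.04 CPM in scramble and from 78.1 ± 2.38 to 93.8 ± 3.53 CPM in siLonp1 (mean ± SD, n = 3), and stood after HS+REC at 93.6 ± 6.86 and 80.0 ± 5.75 CPM. BUB1, its relative at the kinetochore, had log2 fold changes between -0.03 and 0.00.

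Genes of anaphase moved little. PTTG1, securin, was lowered by HS in scramble (-0.24, standard error 0.06), with -0.09 (standard error 0.06) in siLonp1 and an interaction of 0.14 (standard error 0.09) that did not pass. Without replicate 2 (-0.18) of HS scramble the PTTG1 call was lost. CDC20, which directs APC/C to its targets, was lowered for HS+REC in siLonp1 (-0.27, standard error 0.07), with -0.12 (standard error 0.07) in scramble and an interaction of -0.15 (standard error 0.10) that did not pass. UBE2C lay between -0.05 and 0.07 in the 4 comparisons.

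At centromere and kinetochore, CENPF, a large protein of the outer kinetochore, had 248, 227 and 284 CPM in Ctrl scramble, 229, 242 and 184 in HS and 219, 207 and 164 in HS+REC. Its siLonp1 values were 182, 196 and 168 CPM in Ctrl, 141, 174 and 179 in HS and 125, 158 and 149.9 in HS+REC. The replicates of CENPF lay far apart, HS overlapped Ctrl in both siRNA treatments, and HS+REC lay below Ctrl in both. HS+REC lowered CENPF by -0.37 (standard error 0.12) in scramble and -0.33 (standard error 0.12) in siLonp1. CENPA, the histone of the centromere, fell with HS+REC in scramble (-0.25) and had 0.07 in siLonp1, with an interaction of 0.32 (standard error 0.10) that did not pass. For the kinetochore genes CENPE and NDC80 the fall passed in siLonp1 (-0.35 and -0.18), against -0.20 and 0.01 in scramble, and the interactions of -0.15 and -0.19 did not pass. NUF2, the partner of NDC80, was raised by HS in siLonp1 (0.24), against -0.05 in scramble and an interaction of 0.29 that did not pass. CENPF with HS+REC was no longer called in scramble without replicate 3 (-0.27) of Ctrl scramble or replicate 3 (-0.25) of HS+REC scramble, or in siLonp1 without replicate 2 (-0.28) of Ctrl siLonp1 or replicate 1 (-0.24) of HS+REC siLonp1. NDC80 lost its call without replicate 3 (-0.13) of Ctrl siLonp1 or replicate 3 (-0.12) of HS+REC siLonp1, and NUF2 without replicate 1 (0.18) or 2 (0.24) of Ctrl siLonp1 or replicate 1 (0.20) or 3 (0.22) of HS siLonp1. NUF2 was not called with library size alone (0.19), nor NDC80 with the compared groups alone (-0.16).

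The partners of AURKB in the chromosomal passenger complex were lowered in most comparisons. BIRC5 (survivin), INCENP and CDCA8 (borealin), which carry AURKB to centromere and midzone, were all 3 lowered by HS in siLonp1 and by HS+REC in both siRNA treatments, and BIRC5 and CDCA8 by HS in scramble, where INCENP had -0.02, with an interaction of -0.21 that did not pass. Of all genes 17.3% and 22.1% were lowered by HS in scramble and siLonp1, and 20.5% and 26.6% by HS+REC, and with 3 genes these counts are small. CDCA8 went from 108 ± 0.516 to 92.6 ± 2.39 and 81.7 ± 2.19 CPM in scramble, and from 97.3 ± 2.50 to 75.5 ± 4.22 and 63.4 ± 3.55 CPM in siLonp1. For HS+REC the log2 fold changes of the 3 genes lay between -0.40 and -0.27 in scramble and between -0.62 and -0.44 in siLonp1. The BIRC5 libraries of HS and Ctrl overlapped in scramble, as did those of INCENP in siLonp1. The CDCA8 calls by HS passed whichever library was left out, and the others hung on single libraries: that of BIRC5 was lost in scramble without replicate 2 (-0.18) of Ctrl scramble or replicate 1 (-0.18) or 2 (-0.18) of HS scramble and in siLonp1 without replicate 1 (-0.19) or 3 (-0.19) of Ctrl siLonp1 or replicate 2 (-0.18) or 3 (-0.18) of HS siLonp1, and that of INCENP in siLonp1 without replicate 1 (-0.18) or 2 (-0.18) of Ctrl siLonp1 or replicate 1 (-0.13) or 3 (-0.25) of HS siLonp1. The INCENP call was lost with RLE size factors as well.

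Among motors and spindle proteins, KIF11 (Eg5, the kinesin that pushes the spindle poles apart) had 99.5, 92.0 and 98.2 CPM in Ctrl scramble, 73.9, 74.3 and 69.0 in HS and 56.3, 59.9 and 49.9 in HS+REC. Its siLonp1 values were 125, 120.2 and 126 CPM in Ctrl, 84.9, 91.4 and 91.5 in HS and 71.8, 82.3 and 73.2 in HS+REC. The 3 conditions did not overlap within either siRNA treatment, each step lower than the step before. HS+REC changed KIF11 by -0.80 (standard error 0.07, adjusted p = 1.14e-09) in scramble and -0.71 (standard error 0.07, adjusted p = 5.98e-09) in siLonp1, lower in 3 of 3 libraries each (edgeR's quasi-likelihood test, Benjamini-Hochberg adjusted). KIF2C (MCAK, a kinesin that takes microtubules apart at kinetochores, chromosome 1, 44739837 to 44767767) had 133, 136 and 130.5 CPM in Ctrl scramble, 121, 121 and 121 in HS and 100, 101 and 99.6 in HS+REC. It stood at 114, 113 and 108 CPM in Ctrl siLonp1, 89.0, 98.1 and 87.7 in HS and 70.4, 63.3 and 64.5 in HS+REC, with no overlap between conditions. HS+REC changed it by -0.41 (standard error 0.06, adjusted p = 1.92e-06) in scramble and by -0.76 (standard error 0.06, adjusted p = 9.03e-11) in siLonp1, lower in 3 of 3 libraries each (edgeR's quasi-likelihood test, Benjamini-Hochberg adjusted).

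TOP2A, the topoisomerase that untangles sister chromosomes, had 467, 438 and 464 CPM in Ctrl scramble, 465, 428 and 429.7 in HS and 439, 481 and 389 in HS+REC. In siLonp1 it had 457, 456 and 474 CPM in Ctrl, 401, 429.6 and 427 in HS and 410.1, 461 and 396 in HS+REC. Only HS in siLonp1 lay apart from its Ctrl, and the log2 fold changes between -0.14 and -0.05 did not pass. ASPM, which focuses spindle poles, fell in all 4 comparisons, to -0.70 and -0.69 with HS+REC, and KIF4A, a chromosome-bound kinesin, fell by -0.29 and -0.49. TPX2, DLGAP5 and HMMR, which help to nucleate and bundle spindle microtubules, passed no test against Ctrl, with values between -0.10 and 0.17. ASPM was not called for HS in scramble without replicate 1 (-0.30) or 3 (-0.26) of Ctrl scramble or replicate 3 (-0.20) of HS scramble. Of these 8 genes, 2 were lowered by HS in scramble, against 17.3% of all genes, and 4 in each of HS in siLonp1, HS+REC in scramble and HS+REC in siLonp1, against 22.1%, 20.5% and 26.6%.

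The central spindle held the second largest fall after HS+REC in siLonp1. KIF23 (MKLP1, the kinesin of the centralspindlin complex, chromosome 15, 69414349 to 69448425) had 106, 104 and 108 CPM in Ctrl scramble, 89.0, 83.9 and 76.8 in HS and 66.1, 67.2 and 58.4 in HS+REC. With siLonp1 it had 116, 117 and 119 CPM in Ctrl, 77.3, 77.1 and 75.8 in HS and 53.1, 54.5 and 51.8 in HS+REC. The conditions did not overlap in either siRNA treatment, and the siLonp1 series started higher and ended lower than the scramble series. HS+REC changed KIF23 by -0.73 (standard error 0.06, adjusted p = 8.21e-10) in scramble and by -1.14 (standard error 0.06, adjusted p = 2.86e-13) in siLonp1, lower in 3 of 3 libraries each (edgeR's quasi-likelihood test, Benjamini-Hochberg adjusted). PRC1, which bundles the microtubules of the central spindle, had 72.3, 70.3 and 73.8 CPM in Ctrl scramble, 63.8, 67.6 and 68.0 in HS and 56.0, 58.5 and 56.0 in HS+REC. Its siLonp1 values were 122, 124 and 119 CPM in Ctrl, 116, 112 and 111 in HS and 113, 109.8 and 101 in HS+REC, all above every scramble library. HS+REC lowered PRC1 by -0.35 in scramble and -0.18 in siLonp1, with an interaction of 0.17 (standard error 0.08) that did not pass. Without replicate 3 (-0.13) of HS+REC siLonp1 the PRC1 call in siLonp1 was lost, as it was with the compared groups alone (-0.15). KIF20A, a kinesin of the midzone, fell with HS+REC by -0.55 and -0.56.

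ECT2, the exchange factor that starts the contractile ring, was lowered by HS+REC in siLonp1 (-0.20), against -0.07 in scramble and an interaction of -0.13 (standard error 0.10) that did not pass. Its call was lost without replicate 3 (-0.16) of Ctrl siLonp1 or replicate 1 (-0.16) or 3 (-0.19) of HS+REC siLonp1. ANLN (anillin), a scaffold of the contractile ring, rose after HS+REC, from 226 ± 7.62 to 286 ± 31 CPM in scramble and from 231 ± 11.1 to 289.8 ± 20.8 CPM in siLonp1 (mean ± SD, n = 3). Its log2 fold changes were 0.34 (standard error 0.07, adjusted p = 2.62e-04) and 0.33 (standard error 0.07, adjusted p = 3.30e-04), with 3 of 3 libraries above Ctrl in each (edgeR's quasi-likelihood test, Benjamini-Hochberg adjusted). Exons of ANLN share 78 bases (1.65% of its transcript) with KIAA0895 on the opposite strand, which rose with HS+REC from 25.4 to 76.6 CPM in scramble and from 29.1 to 75.1 in siLonp1 (CPM without TMM scaling). The counting strand is not stated, and the part of that gene in the ANLN counts was not tested.

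**Figure D4:**
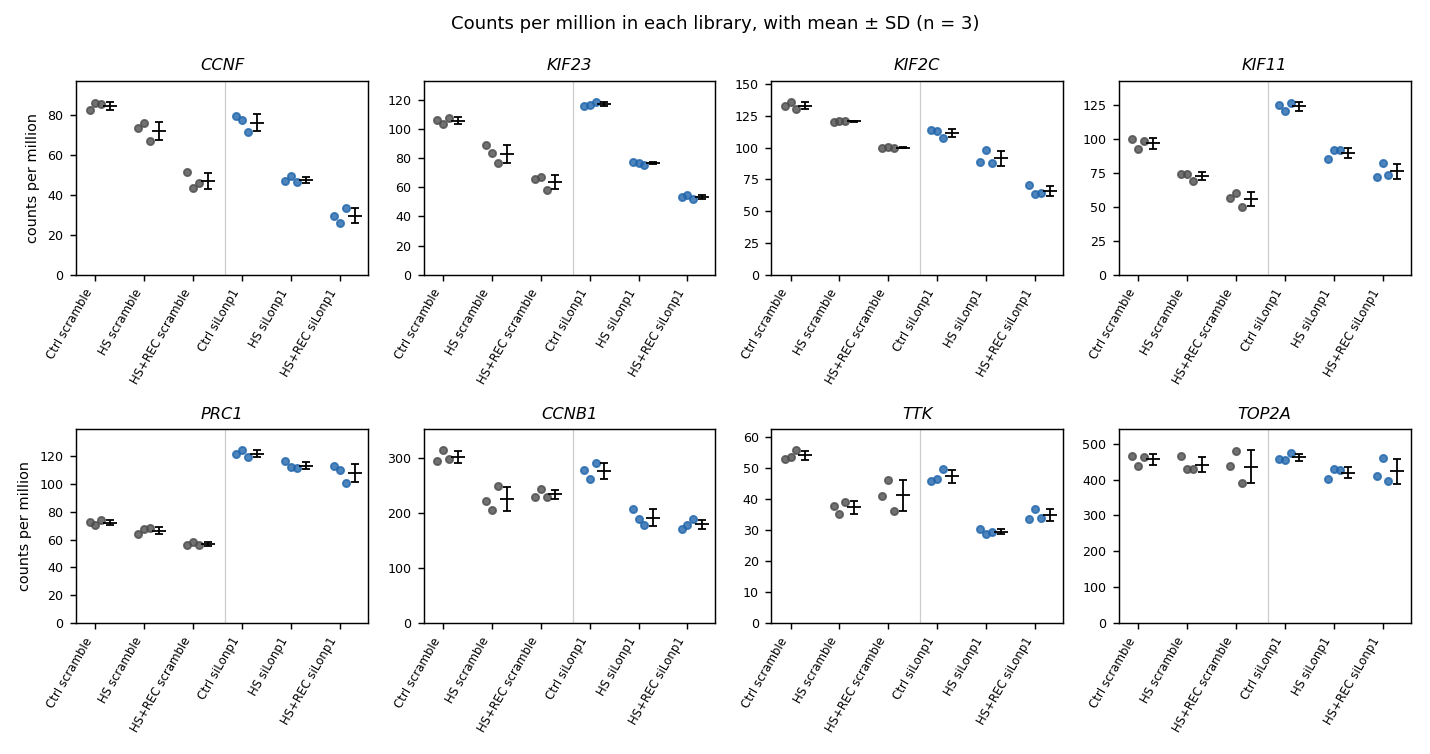
CPM of 8 genes in each library (points) with the mean and SD of each group of 3 (bars), from a baseline of 0, scramble in grey and siLonp1 in blue. CCNF, KIF23, KIF2C and KIF11 step down from Ctrl to HS to HS+REC, PRC1 is higher in siLonp1 throughout, and TOP2A is close to level.

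HS+REC set against HS shows what the hour of recovery added. In scramble it lowered 13 of the 40 genes, against 12.7% of all genes tested, and raised 1, against 14.2%. In siLonp1 it lowered 17, against 15.6%, and raised 2, against 16.3%. The median log2 fold change of the 40 was -0.08 in scramble and -0.15 in siLonp1, beside 0.01 and -0.01 for all genes. With library size alone as the scale, the median in scramble was -0.1402 and none of the 40 was raised, and calls among all genes moved from 1817 raised and 1628 lowered to 1297 and 2279. CCNF fell further by -0.62 (standard error 0.08) in scramble and -0.68 (standard error 0.08) in siLonp1, the largest changes of the list in this comparison, with no overlap between HS and HS+REC. At 2-fold, 1.90% of all genes passed in scramble and 2.57% in siLonp1, and CCNF was short of it. In siLonp1 KIF23 followed with -0.53 and KIF2C with -0.47, and in scramble ASPM and KIF11 had -0.39 each, ASPM moving to -0.25 without replicate 3 of HS+REC scramble. KIF20A, INCENP, CDCA8 and KIF4A were lowered in both siRNA treatments, between -0.38 and -0.18. ANLN rose in both, by 0.19 in scramble, where its libraries overlapped, and 0.30 in siLonp1. TTK, lowest directly after heat, rose in siLonp1 by 0.24 and had 0.14 in scramble, a difference between treatments that was not tested for this comparison. CCNB1 had 0.05 and -0.10, short of the threshold. In scramble ANLN did not pass without replicate 1 (0.21), 2 (0.20) or 3 (0.15) of HS scramble or replicate 1 (0.16) or 2 (0.13) of HS+REC scramble, and CDCA8 without replicate 1 (-0.16) of HS scramble or replicate 3 (-0.16) of HS+REC scramble. In siLonp1 TTK did not pass without replicate 2 (0.22) of HS siLonp1 or replicate 2 (0.20) of HS+REC siLonp1, nor INCENP without replicate 2 (-0.24) of HS siLonp1, and without HS siLonp1 replicate 2 the count of lowered genes was 11. With library size alone ANLN in scramble did not pass (0.13), and with the compared groups alone neither ANLN (0.18) nor CDCA8 (-0.19) did.

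Whether Lonp1 silencing changed the heat response was tested as an interaction, the fold change in siLonp1 minus that in scramble. For HS, 1 of the 40 genes passed as lower (CCNF) and 0 as higher, against 1.39% and 0.475% of all genes tested. DESeq2 gave counts of 1 and 0, where it called 317 of all genes lower and 123 higher. In edgeR 5 of the 40 genes had an unadjusted p under 0.05. For HS+REC, 3 passed as lower (CCNF, KIF23 and KIF2C) and 0 as higher, against 0.896% and 0.686% of all genes. DESeq2 gave 4 and 0 here, with 162 of all genes lower and 155 higher, and 10 of the 40 had an unadjusted p under 0.05 in edgeR. Genes at that unadjusted p were not counted over all genes tested, so these counts have no share to stand beside. At 2-fold, 0.140% and 0.109% of all genes passed, and the largest difference of a mitotic gene was -0.51. The median difference of the 40 was -0.05 for HS and -0.06 for HS+REC, beside 0.00 and -0.02 for all genes. Without Ctrl scramble replicate 2, Ctrl siLonp1 replicate 3 or HS scramble replicate 1 the median for HS was -0.0246, -0.0210 or -0.0221, and without HS+REC scramble replicate 2 the median for HS+REC was 0.0035. The count for HS was 2 without HS scramble replicate 3 and 0 in the 9 of 12 fits with a library left out in which CCNF did not pass, and that for HS+REC was 1 without replicate 1 of Ctrl scramble, Ctrl siLonp1 or HS+REC scramble or replicate 2 of Ctrl siLonp1.

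CCNF fell more with HS in siLonp1 than in scramble by -0.45 (standard error 0.11, adjusted p = 0.0331), and more with HS+REC by -0.51 (standard error 0.11, adjusted p = 0.0176), 3 of 3 heated libraries being below Ctrl in each arm (edgeR's quasi-likelihood test, Benjamini-Hochberg adjusted). The CCNF difference for HS missed the threshold, at little change in size, without replicate 1 (-0.43), 2 (-0.46) or 3 (-0.46) of Ctrl scramble, replicate 1 (-0.42) or 2 (-0.44) of Ctrl siLonp1, replicate 1 (-0.44) or 2 (-0.41) of HS scramble or replicate 1 (-0.44) or 3 (-0.44) of HS siLonp1, each left out singly. With a replicate term the CCNF difference for HS was -0.45 and did not pass (adjusted p = 0.0524, edgeR's quasi-likelihood test, Benjamini-Hochberg adjusted). For HS+REC the CCNF difference missed the threshold without replicate 1 (-0.49) of Ctrl scramble, replicate 1 (-0.48) or 2 (-0.50) of Ctrl siLonp1 or replicate 1 (-0.44) of HS+REC scramble. KIF23 differed by -0.41 (standard error 0.09, adjusted p = 0.0141) and KIF2C by -0.35 (standard error 0.08, adjusted p = 0.0228) with HS+REC, again with 3 of 3 libraries below Ctrl in each arm (edgeR's quasi-likelihood test, Benjamini-Hochberg adjusted). The KIF23 difference held whichever library was left out, and ran between -0.47 and -0.37. KIF2C missed the threshold without replicate 1 (-0.34) or 3 (-0.33) of Ctrl scramble, replicate 1 (-0.33) or 2 (-0.34) of Ctrl siLonp1, replicate 1 (-0.35) of HS+REC scramble or replicate 2 (-0.31) of HS+REC siLonp1.

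Silencing of Lonp1 was compared with scramble within each condition. It moved the mitotic genes in both directions: PRC1, KIF11 and PLK1 were higher in all 3 conditions, and CCNA2, FOXM1, CENPF, KIF2C and CDC25C were lower in all 3. At 37 °C it lowered 15 of the 40 genes, against 22.9% of all genes tested, and raised 6, against 26.3%. In HS it lowered 16, against 26.7%, and raised 7, against 28.1%, and in HS+REC it lowered 20, against 27.3%, and raised 5, against 26.8%. The median log2 fold change of the 40 was -0.10 (Ctrl), -0.13 (HS) and -0.19 (HS+REC), beside 0.01, 0.00 and 0.00 for all genes. Without Ctrl scramble replicate 3, 9 genes were lowered in Ctrl, and without HS scramble replicate 2, 4 were raised in HS. With library size alone, 26 of the 40 were lowered and 3 raised in HS, and the median was -0.1791 in Ctrl and -0.2258 in HS. On that scale calls among all genes moved from 3374 raised and 2941 lowered to 2519 and 3908 in Ctrl, from 3601 and 3425 to 2562 and 4751 in HS, and from 3439 and 3499 to 2655 and 4445 in HS+REC. At 2-fold, 4.17%, 4.17% and 4.18% of all genes passed in Ctrl, HS and HS+REC, and the largest change of a mitotic gene, PRC1 with 0.92 in HS+REC, was short of it. The heat comparisons and these share their libraries, so their counts are not independent.

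**Figure D5:**
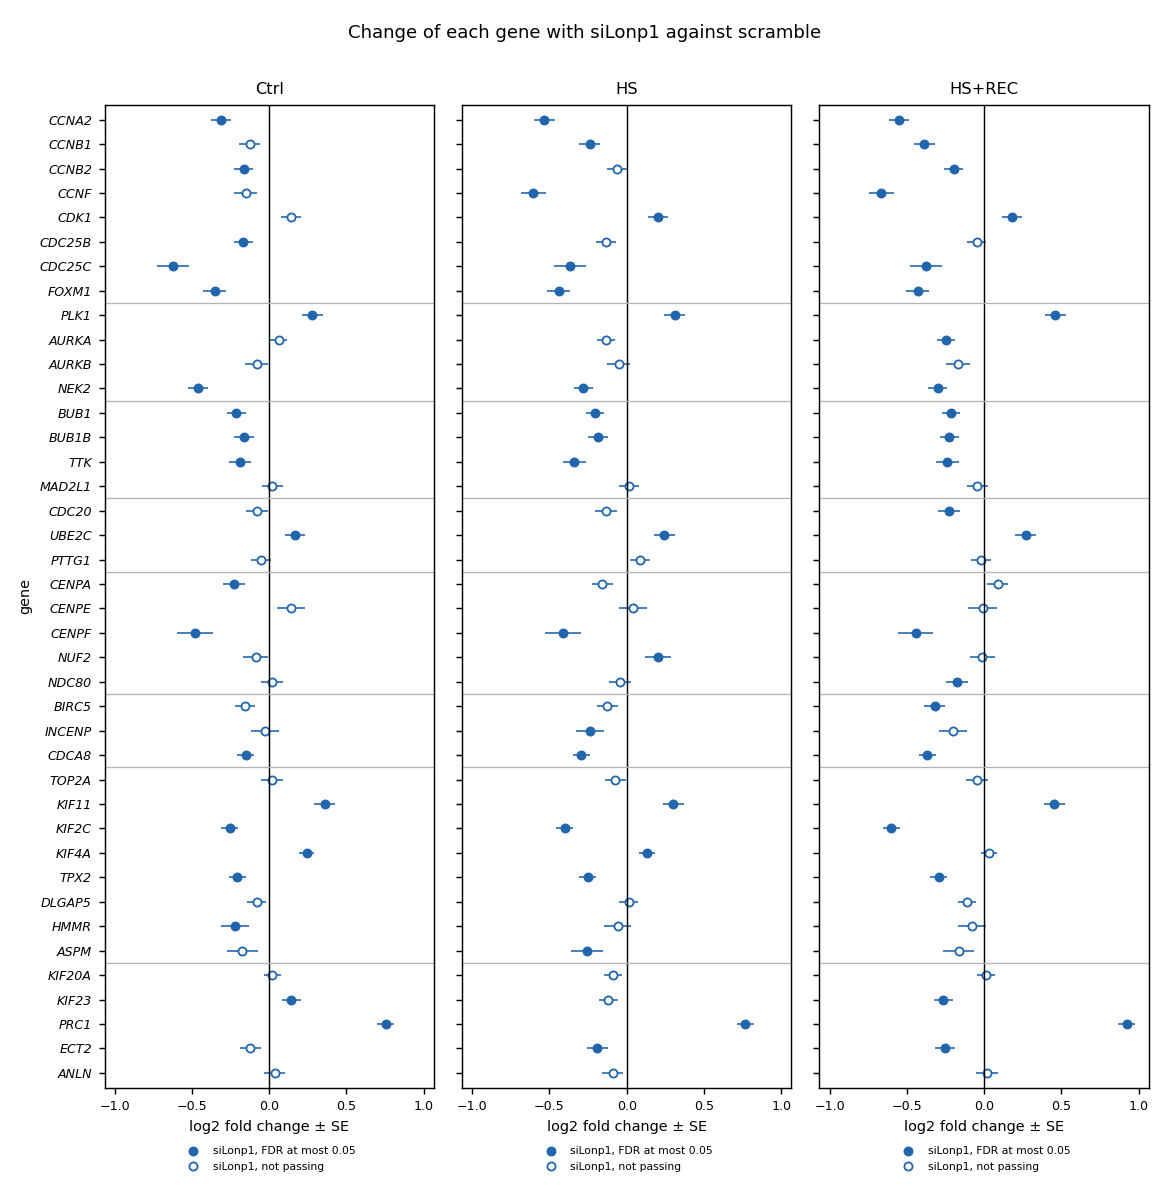
Log2 fold change of each of the 40 genes with siLonp1 against scramble, with its standard error as a bar, in Ctrl (left), HS (middle) and HS+REC (right); filled points passed a false discovery rate of 0.05 and open points did not. PRC1 stands at 0.76, 0.77 and 0.92.

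PRC1 had the largest rise. Its mean was 72.2 ± 1.80 CPM in Ctrl scramble and 122 ± 2.43 in Ctrl siLonp1 (mean ± SD, n = 3), and no library of any scramble group reached any siLonp1 library. The log2 fold change was 0.76 (standard error 0.05, adjusted p = 1.41e-10) in Ctrl, 0.77 (standard error 0.05, adjusted p = 1.08e-10) in HS and 0.92 (standard error 0.06, adjusted p = 4.53e-12) in HS+REC, higher in 3 of 3 libraries each (edgeR's quasi-likelihood test, Benjamini-Hochberg adjusted). In GENCODE, PRC1 shares 88.4% of its transcript with another gene model on the same strand, which the counts table does not list, and 38.8% with PRC1-AS1 on the opposite strand, which had between 7 and 29 counts in all libraries of a group. KIF11 rose by 0.36, 0.30 and 0.45 and PLK1 by 0.28, 0.31 and 0.46 in the order Ctrl, HS, HS+REC, with no overlap between siRNA treatments. UBE2C rose in all 3 conditions, by 0.17 to 0.27. CDK1 was higher in every siLonp1 library than in the scramble libraries of its condition, and passed in HS (0.20) and HS+REC (0.18), with 0.14 in Ctrl and interactions of 0.06 and 0.04 that did not pass. KIF4A rose in Ctrl (0.24) and in HS (0.13), the latter lost without replicate 2 (0.12) or 3 (0.11) of HS scramble or replicate 2 (0.10) of HS siLonp1, with library size alone (0.03), with no filter (0.15) and with the compared groups alone (0.13). The UBE2C call in Ctrl was lost without any of the 6 libraries, with values from 0.14 to 0.19, and the CDK1 call was lost in HS without replicate 2 (0.14) of HS scramble or replicate 1 (0.16) of HS siLonp1 and in HS+REC without replicate 1 (0.17) or 3 (0.13) of HS+REC scramble or replicate 2 (0.16) of HS+REC siLonp1. With library size alone UBE2C did not pass in Ctrl (0.09) or HS (0.15), nor CDK1 in HS (0.11) or HS+REC (0.11). UBE2C in Ctrl was also lost with RLE size factors (0.16), and CDK1 in HS+REC with the compared groups alone (0.18).

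Among the cyclins and their regulators, CDC25C had the largest fall in Ctrl, -0.62 (standard error 0.10, adjusted p = 3.62e-05), lower in 3 of 3 libraries (edgeR's quasi-likelihood test, Benjamini-Hochberg adjusted). It was also lowered in HS (-0.37) and HS+REC (-0.37). CCNA2 was lowered by -0.31, -0.53 and -0.55 and FOXM1 by -0.35, -0.44 and -0.43 in Ctrl, HS and HS+REC, again with no overlap. CCNF had -0.15 (standard error 0.08) in Ctrl, which did not pass, and was lowered by -0.60 (standard error 0.08, adjusted p = 1.05e-06) in HS and -0.67 (standard error 0.08, adjusted p = 3.33e-07) in HS+REC, lower in 3 of 3 libraries each (edgeR's quasi-likelihood test, Benjamini-Hochberg adjusted). CCNB1 had -0.13 in Ctrl and was lowered in HS (-0.24, with overlapping libraries) and HS+REC (-0.39), with interactions of -0.11 and -0.26 that did not pass. Exons of FOXM1 share 22.0% of its transcript with ITFG2 on the opposite strand, whose log2 fold change with siLonp1 in Ctrl was 0.09.

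CENPF was lowered by -0.48, -0.41 and -0.44 in the 3 conditions, and NEK2 by -0.46, -0.28 and -0.30. KIF2C went from -0.25 (standard error 0.06) in Ctrl to -0.40 (standard error 0.06) in HS and -0.60 (standard error 0.06) in HS+REC. The checkpoint genes BUB1, BUB1B and TTK were lowered in each condition, between -0.34 and -0.16, and MAD2L1 stayed between -0.04 and 0.02. TPX2 was lowered in each, by -0.21 to -0.30. KIF23 was raised in Ctrl (0.14, standard error 0.06) and lowered in HS+REC (-0.27, standard error 0.06). The rise was lost without any of the 6 libraries, with values from 0.13 to 0.16, and with DESeq2 (0.13), RLE size factors (0.13), library size alone (0.07) and no filter (0.16). In Ctrl the BUB1B call was lost without replicate 2 (-0.16) or 3 (-0.14) of Ctrl scramble or replicate 1 (-0.14) or 3 (-0.17) of Ctrl siLonp1, and the TTK call without replicate 2 (-0.20) or 3 (-0.17) of Ctrl scramble or replicate 1 (-0.17) or 2 (-0.18) of Ctrl siLonp1. In HS BUB1B did not pass without replicate 2 (-0.17) of HS scramble or replicate 1 (-0.15) of HS siLonp1, and in HS+REC BUB1 did not pass without replicate 2 (-0.13) of HS+REC scramble, nor TTK without replicate 2 (-0.15) of HS+REC scramble. With no filter BUB1B (-0.15) and TTK (-0.17) did not pass in Ctrl, with the compared groups alone TTK did not pass in HS+REC (-0.24), and with library size alone BUB1B in HS was -0.28. TOP2A and DLGAP5 passed no test between conditions or siRNA treatments, with siLonp1 values between -0.11 and 0.02.

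Other mitotic genes, a list of 56 with kinesins, kinetochore subunits and regulators, are the genes most like these. HS lowered 13 and raised 8 of them in scramble and lowered 17 and raised 8 in siLonp1, and HS+REC lowered 24 and raised 6 in scramble and lowered 28 and raised 5 in siLonp1. These are 23.2%, 30.4%, 42.9% and 50% lowered, against 17.3%, 22.1%, 20.5% and 26.6% of all genes, and 14.3%, 14.3%, 10.7% and 8.93% raised, against 18.6%, 20.2%, 21.8% and 24.6%. The shares after HS lie nearer to those of all genes than the shares after HS+REC. MKI67, the Ki-67 proliferation antigen of the chromosome surface, had 357 ± 48.3 CPM in Ctrl scramble, 270.0 ± 37.9 in HS and 248 ± 37.0 in HS+REC (mean ± SD, n = 3). It was lowered by HS in scramble (-0.40, standard error 0.13) and by HS+REC in scramble (-0.53) and siLonp1 (-0.50), with -0.23 for HS in siLonp1 and an interaction of 0.17 (standard error 0.18) that did not pass. KIF18B, a kinesin of astral microtubules, fell with HS+REC to 41.2 ± 3.68 CPM from 65.9 ± 4.08 in scramble and to 32.2 ± 2.28 from 70.5 ± 8.37 in siLonp1, and SPC24, a subunit of the NDC80 complex, fell by -1.13 and -0.93. CKS2, a small partner of CDK1, rose by 0.73 and 1.08 with HS+REC, and FAM83D, a spindle protein, rose by 0.88 and 0.61 with HS. With siLonp1, 20, 23 and 25 of the 56 were lowered and 4, 6 and 6 raised in Ctrl, HS and HS+REC, where 22.9%, 26.7% and 27.3% of all genes were lowered and 26.3%, 28.1% and 26.8% raised, led in Ctrl by ESPL1 (separase, which cuts cohesin at anaphase) with -0.72 (standard error 0.08). CDC25A, the CDC25 phosphatase of G1/S and G2, had the largest fall of the list with HS in siLonp1, from 96.8 ± 3.75 to 45.9 ± 1.94 CPM (-1.08), against 111 ± 1.47 and 95.8 ± 2.55 CPM in scramble, and passed the interaction with HS at -0.86 (standard error 0.10), and so did CKS2 at 0.45.

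Of the genes for G1/S and DNA replication, 48 in the list, more were lowered than raised by HS and HS+REC against Ctrl. In scramble most of them did not pass. HS lowered 18 and raised 3 in scramble and lowered 26 and raised 2 in siLonp1, and HS+REC lowered 20 and raised 3, and 32 and 1. The lowered are 37.5%, 54.2%, 41.7% and 66.7% of the list, against 17.3%, 22.1%, 20.5% and 26.6% of all genes. With siLonp1, 28, 36 and 36 (58.3%, 75.0% and 75.0%) were lowered and 4, 2 and 2 raised in Ctrl, HS and HS+REC, where 22.9%, 26.7% and 27.3% of all genes were lowered and 26.3%, 28.1% and 26.8% raised. Their median of -0.24, -0.35 and -0.34 in these conditions lay below that of the mitotic genes. CCNE2, cyclin E2 of S phase entry, stood at 25.2 ± 1.45 CPM in Ctrl scramble and 13.2 ± 2.27 in HS, and at 44.9 ± 2.08 and 15.6 ± 1.06 CPM in siLonp1, a fall of -0.94 and -1.53 on the log2 scale. In HS+REC against HS, 4 were lowered and 4 raised in scramble and 8 and 6 in siLonp1, against 12.7% and 14.2% of all genes in scramble and 15.6% and 16.3% in siLonp1, where the mitotic list had 13 and 1, and 17 and 2. The other mitotic genes had 13 lowered and 2 raised in scramble and 20 and 3 in siLonp1 in that comparison. In the interaction with HS, 5 of the G1/S list were lowered and 0 raised, and with HS+REC 2 and 0. The mitotic list had 1 and 0, and 3 and 0. Of all genes 1.39% were lowered and 0.475% raised with HS, and 0.896% and 0.686% with HS+REC. No test of the difference between the lists was made.

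Of 12 listed brakes of G2/M 11 were tested. HS raised 7 and lowered 1 in each siRNA treatment, and HS+REC raised 5 in scramble and 6 in siLonp1 and lowered 1 in each, where 18.6%, 20.2%, 21.8% and 24.6% of all genes were raised by HS (scramble, siLonp1) and HS+REC (scramble, siLonp1), and 17.3%, 22.1%, 20.5% and 26.6% lowered. SFN (14-3-3 sigma, which holds back CDK1 in the cytoplasm) was lowered by HS in scramble (-0.28) and by HS+REC in both (-0.49 and -0.39), with -0.04 for HS in siLonp1 and an interaction of 0.25 that did not pass. GADD45B, a stress gene that can hold back CDK1, went from 64.0 ± 4.40 to 207 ± 14.1 CPM with HS and 105 ± 3.69 with HS+REC in scramble, and from 77.9 ± 4.49 to 216 ± 5.91 and 121 ± 10.9 CPM in siLonp1. CDKN1A (p21, an inhibitor of CDKs and a target of p53) went from 4.78 ± 0.105 to 15.2 ± 1.51 and 17.5 ± 2.12 CPM in scramble and from 8.55 ± 0.751 to 22.5 ± 1.65 and 27.6 ± 4.87 CPM in siLonp1. Both stayed above Ctrl after recovery, and BTG2 and GADD45A rose with HS by 1.34 and 1.05 in scramble and by 1.53 and 1.00 in siLonp1. After HS+REC, BTG2 had 12.39 CPM in scramble and 7.48 in siLonp1, against 11.34 and 7.76 in Ctrl. GADD45A then had 52.36 and 74.55 CPM, against 43.73 and 53.52 in Ctrl. WEE1, the kinase that keeps CDK1 inactive, was level in scramble at 68.8 ± 2.87, 69.9 ± 0.706 and 69.1 ± 1.47 CPM in Ctrl, HS and HS+REC. In siLonp1 it had 70.9 ± 3.23, 52.9 ± 3.10 and 89.9 ± 10.6 CPM, lowered by HS (-0.42) and raised by HS+REC (0.34). The WEE1 interaction passed for HS (-0.45, standard error 0.10) and not for HS+REC (0.34, standard error 0.10). With siLonp1, 4, 5 and 4 of the 11 brakes were lowered and 4, 4 and 6 raised in Ctrl, HS and HS+REC. Of all genes 22.9%, 26.7% and 27.3% were lowered and 26.3%, 28.1% and 26.8% raised.

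Of the 17 genes of APC/C subunits and regulators, HS lowered 6 in each siRNA treatment, and HS+REC lowered 5 and raised 1 in scramble and lowered 8 and raised 1 in siLonp1. Lowered were 35.3%, 35.3%, 29.4% and 47.1% in the order HS scramble, HS siLonp1, HS+REC scramble, HS+REC siLonp1, against 17.3%, 22.1%, 20.5% and 26.6% of all genes, a difference of a few genes. FBXO5 (EMI1, an inhibitor of APC/C) fell with HS from 77.3 ± 1.45 to 49.3 ± 1.95 CPM in scramble and from 98.3 ± 5.24 to 51.7 ± 1.05 CPM in siLonp1, and FZR1 (CDH1, an activator of APC/C) fell with HS+REC by -0.59 and -0.84. With siLonp1, 3, 4 and 5 of the 17 were lowered and 6, 5 and 5 raised in Ctrl, HS and HS+REC. Of all genes 22.9%, 26.7% and 27.3% were lowered and 26.3%, 28.1% and 26.8% raised. Of the 8 genes of condensin, which compacts chromosomes, siLonp1 lowered 7, 6 and 6 (87.5%, 75.0% and 75.0%) in Ctrl, HS and HS+REC, against 22.9%, 26.7% and 27.3% of all genes, with NCAPD2 at 379 ± 15.2 CPM in Ctrl scramble and 219 ± 7.40 in Ctrl siLonp1. NCAPD2 was lowered by -0.79, -1.02 and -1.13. With heat condensin was mixed and its counts small, with 1 raised by HS in scramble, 2 raised and 3 lowered by HS in siLonp1, 2 raised and 1 lowered by HS+REC in scramble and 2 raised and 3 lowered in siLonp1. Of all genes 18.6%, 20.2%, 21.8% and 24.6% were raised in this order. Cohesin, which holds sister chromatids, had 2, 3, 1 and 4 of 10 genes lowered in the same order of comparisons as for APC/C, against the same shares of all genes. With siLonp1, 3, 6 and 5 of the 10 were lowered in Ctrl, HS and HS+REC, against 22.9%, 26.7% and 27.3% of all genes, and 2 were raised in HS+REC, against 26.8%.

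Of the 14 genes of DREAM, MYBL2, NF-Y and their E2F partners, which regulate mitotic transcription, HS raised 5 and lowered 3 in scramble and raised 2 and lowered 5 in siLonp1. HS+REC lowered 4 and raised 1 in scramble and lowered 7 and raised 1 in siLonp1. Lowered were 21.4%, 35.7%, 28.6% and 50%, against 17.3%, 22.1%, 20.5% and 26.6% of all genes, and raised 35.7%, 14.3%, 7.14% and 7.14%, against 18.6%, 20.2%, 21.8% and 24.6%. With 14 genes each is 7.14% of the list. E2F5, a repressor E2F, was lowered in all 4, from 15.8 ± 1.46 to 10.3 ± 0.615 CPM with HS in scramble and from 16.1 ± 2.18 to 9.12 ± 0.515 in siLonp1. With siLonp1, 3, 5 and 7 of the 14 were lowered and 3, 3 and 1 raised in Ctrl, HS and HS+REC, where 22.9%, 26.7% and 27.3% of all genes were lowered and 26.3%, 28.1% and 26.8% raised. Among the raised, NFYA, the subunit of NF-Y that reads the CCAAT box, was higher with siLonp1 in all 3 conditions, by 0.63, 0.50 and 0.81, with 62.1 ± 1.55 CPM in Ctrl scramble and 96.3 ± 3.12 in Ctrl siLonp1. RBL1 (p107, a pocket protein) passed the interaction with HS at -0.54 (standard error 0.11), standing at 43.8 ± 3.25 and 54.0 ± 0.655 CPM in Ctrl and HS scramble and at 42.1 ± 1.99 and 35.7 ± 0.964 in siLonp1.

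Position and sequence of the 40 genes touch their counts in a few places. In GENCODE, exons of 12 of them overlap another gene, 11 on the opposite strand and 2 on the same strand, and 10 have copies named after them, mostly pseudogenes. The AURKA copy AURKAPS1 rose from 0.623 to 2.59 CPM (without TMM scaling) with HS+REC in scramble while AURKA fell, and the PTTG1 copies PTTG2 and PTTG3P had at most 2 counts in a group. Across the 40 genes, the Spearman coefficient of the log2 fold change with transcript length lay between -0.418 (interaction with HS) and 0.054. It was below 0, longer transcripts tending to the lower values, in all of the 11 comparisons but siLonp1 against scramble in Ctrl. With level per kb it lay between -0.119 and 0.220. The part of transcript length in the changes was not tested. The genes share their libraries and are not independent replicates.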

How the data were processed

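The values are the raw counts per gene that the authors deposited, made with STAR 2.7.3a on hg38 and featureCounts of Rsubread in R 3.6.3 on UCSC genes. The counting strand, the annotation release and the treatment of reads with several places are not given in the sources used here. Genes with CPM above 1 in at least 3 of the 18 libraries were tested, 12832 in all, in 1 edgeR quasi-likelihood model with a mean per group and TMM scaling (R 4.3.3, edgeR 4.0.16, limma 3.58.1). The 6 groups shared 1 estimate of the spread of a gene, though replicates were not equally alike. Between 2 replicates, the chi-square per degree of freedom over genes was 3.507 to 8.886 in the Ctrl groups. In the HS groups it was 3.482 to 18.89, and in the HS+REC groups 14.71 to 25.84, higher being less alike. P values were adjusted over all tested genes by Benjamini-Hochberg. The 40 genes and the lists beside them were chosen with earlier results of these data known. Values per library are given for CCNB1, CDK1, PLK1, AURKA, TOP2A, FOXM1 and the 3 largest called changes of each comparison against Ctrl or scramble, and genes of other lists are taken from the up to 4 largest called changes of each comparison, besides MKI67, WEE1, CDKN1A and SFN. Alternatives tried were RLE size factors, library size alone, no filter, DESeq2 1.42.0, a replicate term, the compared groups alone, a false discovery rate of 0.01, a 2-fold limit and each library left out. Gene models are from GENCODE release 44 and promoters from RefSeq (Python 3.11.15, pandas 2.3.3, matplotlib 3.10.9).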

Additional observations from a re-analysis of the deposited data

Results flagged for a closer look

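In each of these values a heat effect differed between the siRNA treatments by the interaction term of edgeR's quasi-likelihood model, which is what singled them out among the 40 genes. CCNF fell more with HS in siLonp1 than in scramble, by -0.4503 on the log2 scale (adjusted p = 0.0331, Benjamini-Hochberg, standard error 0.11, heated libraries below Ctrl in 3 of 3 in each treatment). For HS+REC the differences were -0.5137 for CCNF, -0.41 for KIF23 and -0.3455 for KIF2C. The difference of CCNF with HS missed the threshold in 9 of 12 fits with a library left out, that of CCNF with HS+REC in 4 of 12 and that of KIF2C in 6 of 12, while that of KIF23 passed in all 12. With a replicate term the difference of CCNF with HS did not pass (-0.4491, adjusted p = 0.0524, edgeR's quasi-likelihood test, Benjamini-Hochberg). The cause was not tested.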

How the results depend on the processing

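Of the 189 calls of a mitotic gene, 130 passed at a false discovery rate of 0.05 in every refit (other scaling, no filter, DESeq2, replicate term, compared groups alone, each library left out) and none changed sign. Stricter thresholds are not part of that count. Genes of the other lists were not followed through these fits. The counts and medians below are those that moved, and the cause was not tested. With library size only, the median of all genes tested moved as well. Against Ctrl it moved by -0.0262 (HS, scramble), -0.0484 (HS, siLonp1), -0.0832 (HS+REC, scramble) and -0.08 (HS+REC, siLonp1). For HS+REC against HS in scramble it moved by -0.0573. For siLonp1 against scramble it moved by -0.0745 (Ctrl), -0.0971 (HS) and -0.0713 (HS+REC), and for the interaction with HS by -0.0223. The medians of the mitotic genes moved along with that scale.

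With HS against Ctrl in scramble, the number raised, 1, was 3 with only the compared groups, 0 at 2-fold, and between 1 (without Ctrl scramble replicate 1) and 4 (without HS scramble replicate 3) with a library left out. The number lowered was 0 at 2-fold, where TTK at -0.53 was the largest change. The median moved from -0.09 to -0.1162 with library size only. In siLonp1 the number raised, 4, was 2 with library size only, 2 at a false discovery rate of 0.01, 0 at 2-fold, and between 1 (without HS siLonp1 replicate 1) and 4 (without Ctrl siLonp1 replicate 3) with a library left out. The number lowered was 0 at 2-fold, the largest being TTK at -0.68. The median, -0.10, was -0.1533 with library size only and between -0.1266 and -0.0994 with a library left out.

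With HS+REC against Ctrl in scramble, 0 were raised and 0 lowered at 2-fold (CCNF at -0.85 was nearest), and the median moved from -0.20 to -0.2792 with library size only and lay between -0.2467 and -0.1822 with a library left out. In siLonp1, 0 were raised and 2 lowered at 2-fold, and the median moved from -0.22 to -0.2951 with library size only.

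With HS+REC against HS in scramble, the number raised, 1, was 0 with library size only, 0 with only the compared groups, 0 at a false discovery rate of 0.01, 0 at 2-fold, and 0 to 2 with a library left out. The number lowered was 0 at 2-fold, and the median moved from -0.08 to -0.1402 with library size only. In siLonp1 the number raised, 2, was 1 at a false discovery rate of 0.01, 0 at 2-fold, and 1 to 2 with a library left out. The number lowered, 17, was 11 at a false discovery rate of 0.01, 0 at 2-fold, and 11 to 17 with a library left out. CCNF had the largest change in both, -0.62 and -0.68.

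With siLonp1 against scramble in Ctrl, 0 were raised and 0 lowered at 2-fold (PRC1 at 0.76 was nearest). The number lowered, 15, was 9 at a false discovery rate of 0.01 and 9 to 12 with a library left out. The median, -0.10, was -0.1791 with library size only, -0.0885 with no filter on low counts, -0.1207 with only the compared groups, and between -0.13 and -0.0903 with a library left out. In HS the number raised, 7, was 3 with library size only, 0 at 2-fold, and 4 to 6 with a library left out. The number lowered, 16, was 26 with library size only and 0 at 2-fold. The median, -0.13, was -0.2258 with library size only and between -0.1437 and -0.0986 with a library left out. In HS+REC, 0 were raised and 0 lowered at 2-fold (PRC1 at 0.92 was nearest), and the median moved from -0.19 to -0.2572 with library size only.

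For the interaction with HS, the number lowered, 1, was 2 with only the compared groups, 0 at a false discovery rate of 0.01, 0 at 2-fold, and 0 to 2 with a library left out. The median, -0.05, was -0.0714 with library size only and between -0.0535 and -0.021 with a library left out. For the interaction with HS+REC, the number lowered, 3, was 0 at a false discovery rate of 0.01, 0 at 2-fold, and 1 (without Ctrl scramble replicate 1) to 4 (without HS+REC scramble replicate 3) with a library left out. The median, -0.06, lay between -0.0956 and 0.0035 with a library left out and had the other sign without HS+REC scramble replicate 2. CCNF had the largest differences, -0.45 and -0.51. DESeq2 called 1 and 4 lowered and 0 raised in these interactions, and edgeR had 5 and 10 genes at an unadjusted p under 0.05.

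With a replicate block, 0 genes were lowered in the interaction with HS, where CCNF had -0.45 (adjusted p = 0.0524, edgeR's quasi-likelihood test, Benjamini-Hochberg, 3 of 3 libraries below Ctrl in each treatment). Other calls lost with it were INCENP for HS in siLonp1, CENPA (scramble) and CCNB2 (siLonp1) for HS+REC against HS, and UBE2C and KIF23 for siLonp1 in Ctrl. INCENP, UBE2C and KIF23 in these comparisons were also lost with RLE size factors. Residuals of libraries with the same replicate number in a pair of groups correlated over 0.1 in 10 of 45 pairs. Over the 45 pairs the correlation ran from -0.375 to 0.452, with a median of -0.043. The best match among the 3 libraries of another group had the same number in 28 of 90 cases. The labels give replicate numbers and state no pairing.

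What limits these values is the design: 3 libraries per group from 1 cell line, 1 silencing treatment and bulk RNA. The text does not say which of its siRNA sequences was used for RNAseq. The bulk RNA comes without a measure of the share of cells in each phase. Bulk RNA cannot tell a change in transcription from a change in RNA decay within the hour. The counting strand is not stated, so counts of the 11 genes with exons opposite another gene may hold reads of that gene.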
